A study of Homo sapiens with 6 samples.

Results

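Solute carriers (SLC genes) are membrane proteins that move nutrients, ions and metabolites across the plasma membrane and the membranes of organelles. The genes described here are those whose symbol in the platform annotation consists of SLC, a family number, the letter A and a member number. There were 17 of them among the 14884 genes named in the annotation, each with 1 probe set, and all 17 passed the brightness limit and were among the 10640 genes tested. The RefSeq gene table lists 347 symbols of this form, so 17 is a small part of the superfamily, and the other carriers are not analysed here. Most of the 17 carried other names until recently, for example MFSD (major facilitator superfamily domain) or PQLC (PQ-loop) symbols. The well-studied importers of glucose, glutamine, cystine or lactate are not among them.

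RNA came from MDA-MB-231, an established human triple-negative breast cancer cell line, and was measured on Affymetrix Human Gene 2.0 ST arrays. The 3 groups were cells transfected by lipofection with the control siRNA siNC, with siATM against the DNA damage kinase ATM, or with sip53 against the tumour suppressor p53, which this line carries in mutant form. Each group held 2 arrays, and the time after transfection is not stated in the labels. The labels do not say that the 2 samples of a group were separate cultures, so p-values measure the spread between these samples only, which may be technical. ATM and p53 transcripts are not analysed here, so how far each siRNA lowered its target is not known from these values.

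Array medians lay between 5.95 and 5.98 on the log2 scale. Of the markers set for the line, 3 of 4 high ones were named in the annotation, and VIM, CD44 and AXL lay between 10.8 and 12.7 in all arrays. Of 5 markers set as low, 3 were named, and their highest value was EPCAM at 9.09, so the epithelial adhesion gene EPCAM was not dim on this array, while ESR1 and PGR were below the brightness limit of 5.96. Of the named markers of other cell types, CD14, LYZ, PECAM1 and LUM were called against siNC with at least 1 siRNA. The summed linear signal of the 2 named haematopoietic markers of 5, CD14 and LYZ, was 449.7 to 450.7 with siNC, 884.6 to 922.6 with siATM and 280.2 to 325.5 with sip53. That of the 2 endothelial markers named of 3 (PECAM1, VWF) was 138.0 to 141.4, 109.5 to 113.8 and 139.1 to 146.4, and that of the 2 fibroblast markers named of 4 (LUM, DCN) 165.3 to 183.4, 257.7 to 292.6 and 239.2 to 244.0. VWF and DCN lay below the brightness limit, and their siNC and siRNA arrays overlapped. The endothelial and fibroblast shifts are thus mainly those of the single genes PECAM1 and LUM. The part of these shifts in the results below was not tested. Bulk arrays cannot tell fewer cells of a type from less RNA per cell.

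Carriers do not split ATP themselves. They let solutes run down a gradient or couple them to sodium or protons, and the SLC family numbers group proteins by sequence, which often, but not always, follows the substrate. Many of the 17 belong to the major facilitator superfamily, whose members move sugars, drugs, anions and vitamins. Several have no settled substrate. Classes were therefore set by family number, and by single gene in family SLC66 alone. They were 2 mitochondrial carriers, 3 genes of families that move cofactors and 2 amino acid carriers. The others were 2 of a sugar family and 8 with other or uncertain substrates. In SLC66, SLC66A1 was placed among the amino acid carriers and SLC66A2 and SLC66A3 among the uncertain ones. SLC33A2, SLC49A3 and SLC49A4 stayed with the cofactor families by number, which does not show that each of them carries a cofactor. The substrate of SLC33A2 is not settled.

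After siATM, 6 of the 17 genes changed, 4 of them higher and 2 lower (limma, Benjamini-Hochberg adjusted p below 0.05). Among all 10640 genes, 25.5% changed after siATM, 12.5% higher and 13.0% lower, so the members' share was not far from that of all genes. The siATM and siNC arrays did not overlap in 12 of the 17, and in 62.7% of all genes. SLC25A15, a mitochondrial ornithine carrier, fell 1.61-fold, and SLC71A2, an orphan major facilitator, fell 1.39-fold. SLC33A2 rose 1.54-fold, and SLC66A3, SLC61A1 and SLC49A3 rose 1.27-fold, 1.25-fold and 1.24-fold. The median log2 fold change of the 17 was 0.05 and their median absolute change 0.15, against −0.0006 and 0.13 over all genes tested. After sip53, 0 of the 17 genes passed the test. By substrate class, the changes after siATM fell in the mitochondrial carriers (1 of 2), the cofactor families (2 of 3) and the genes of other or uncertain substrate (3 of 8), and 0 of the 4 genes classed under amino acids (SLC66A1, SLC38A12) and sugars (SLC60A1, SLC60A2) passed. With the whole family SLC66 counted under amino acids, SLC66A3 would add 1 call there. With SLC33A2 counted as uncertain, its call would move there from the cofactor families.

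**Figure D1:**
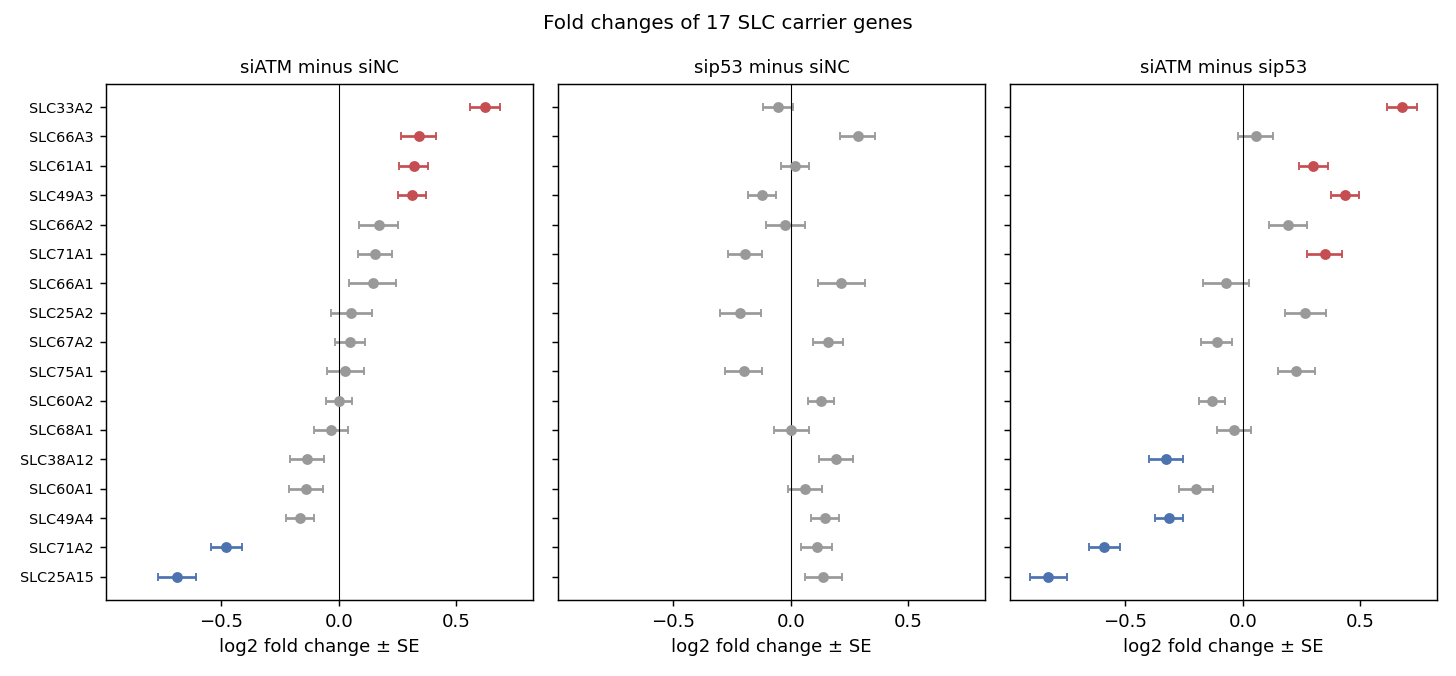
Log2 fold change (x axis, ± moderated SE) of the 17 SLC genes (y axis, ordered by the change after siATM) for siATM minus siNC, sip53 minus siNC and siATM minus sip53, on 1 common scale. Red points are genes called higher, blue points genes called lower and grey points genes that did not pass the test; SLC25A15 lies lowest and SLC33A2 highest after siATM, and the sip53 panel holds grey points only.

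The mitochondrial family SLC25 carries metabolites across the inner mitochondrial membrane. SLC25A15 (also ORNT1) exchanges ornithine and citrulline between the matrix and the cytosol, a step of the urea cycle, and its inherited loss causes the hyperornithinaemia-hyperammonaemia-homocitrullinuria syndrome. Its log2 values were 8.67 and 8.65 with siNC, 7.89 and 8.06 with siATM, and 8.73 and 8.87 with sip53. Both siATM arrays lay below all 4 other arrays, and the sip53 arrays lay just above the siNC arrays. The group means were 8.66 ± 0.02 with siNC and 7.97 ± 0.12 with siATM (SD, n = 2 each), a log2 fold change of −0.69 (SE 0.08, limma adjusted p = 0.00145). The call was kept in all 14 alternative settings, with fold changes between −0.77 and −0.60. After sip53 the difference was 0.14 (95% interval −0.05 to 0.33).

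SLC25A2 (ORNT2) encodes a second ornithine carrier. It was dim, with log2 values of 6.38 and 6.24 with siNC, 6.28 and 6.45 with siATM, and 6.03 and 6.17 with sip53. The siATM and siNC arrays overlapped, and the difference was 0.05 (95% interval −0.15 to 0.26). With sip53 both arrays lay below both siNC arrays, but the difference of −0.21 did not pass (limma adjusted p = 0.171). The pair of ornithine carriers thus had 1 member lower and 1 not called after siATM. Whether their changes differ from each other was not tested.

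SLC25A15 is the member with the largest fall after siATM, and SLC66A3 is a member called higher after siATM whose sip53 arrays also lay above siNC, so the 250 bases upstream of their annotated starts are shown, from RefSeq on GRCh38.p14, in windows that overlap no other gene in the RefSeq table. Capitals mark the GC box GGGCGG or its reverse complement CCGCCC, the letters bound by factors of the SP family. The window of SLC25A15 is chr13:40789361-40789610 (plus strand) and that of SLC66A3 is chr2:11155217-11155466 (plus strand).
SLC25A15: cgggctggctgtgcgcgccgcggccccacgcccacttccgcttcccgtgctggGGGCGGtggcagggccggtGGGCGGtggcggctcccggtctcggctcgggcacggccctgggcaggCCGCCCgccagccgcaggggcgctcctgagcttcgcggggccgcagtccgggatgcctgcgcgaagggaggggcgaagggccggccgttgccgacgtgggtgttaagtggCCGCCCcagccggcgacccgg
SLC66A3: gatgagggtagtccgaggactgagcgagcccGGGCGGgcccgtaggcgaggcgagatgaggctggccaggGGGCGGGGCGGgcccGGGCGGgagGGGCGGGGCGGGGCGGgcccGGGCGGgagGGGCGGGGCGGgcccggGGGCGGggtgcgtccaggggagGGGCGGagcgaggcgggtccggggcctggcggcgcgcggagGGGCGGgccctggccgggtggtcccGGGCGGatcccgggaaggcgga
The window of SLC25A15 holds 4 GC boxes and that of SLC66A3 holds 14, counting both strands and overlapping matches. The 14 members with an entry in the promoter table have 15 windows of this length. Of these, 13 hold at least 1 GC box, and 42.6% of all 35116 windows do. All members passed the brightness limit, which was not set for the genes of the 35116 windows. Whether the shares differ was not tested. The box CCAAT, in either strand, is in 3 member windows and in 32% of all windows. The amino acid response element TGATGNAA, the letters bound by ATF4 with a C/EBP partner, is in 0 member windows and in 3.14% of all windows. These matches describe letters in the windows and are not sites measured here.

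In the families that move cofactors, 2 of 3 genes rose after siATM. SLC33A2 (MFSD3) belongs to the family of the acetyl-coenzyme A transporter of the endoplasmic reticulum, and its own substrate is not settled. Its log2 values were 8.94 and 9.00 with siNC, 9.53 and 9.65 with siATM, and 8.90 and 8.92 with sip53. The siATM arrays stood above the other 4, which lay within a narrow band. The means were 8.97 ± 0.04 and 9.59 ± 0.09 (SD, n = 2 each), a log2 fold change of 0.62 (SE 0.06, limma adjusted p = 0.00102). This call was kept in all 14 settings, between 0.56 and 0.68. After sip53 the difference was −0.06 (95% interval −0.21 to 0.09).

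SLC49A3 (MFSD7) is related to the haem and choline transporters of the FLVCR group. Its log2 values were 8.54 and 8.51 with siNC, 8.82 and 8.86 with siATM, and 8.36 and 8.45 with sip53, so the groups did not overlap. The rise after siATM was 0.31 (SE 0.06, limma adjusted p = 0.00907), and it lost its call without siNC replicate 2 (0.30, adjusted p = 0.0554). The difference after sip53 was −0.12 (limma adjusted p = 0.239).

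SLC49A4 (DIRC2), a lysosomal membrane protein first described at a chromosomal break in familial renal cancer, had log2 values of 10.86 and 10.78 with siNC, 10.68 and 10.63 with siATM, and 10.97 and 10.96 with sip53. The siATM arrays were the lowest and the sip53 arrays the highest. Neither difference from siNC passed, with −0.17 after siATM (limma adjusted p = 0.0825) and 0.15 after sip53 (limma adjusted p = 0.170). The siATM difference was called when the brightness limit was raised to the 70th percentile (adjusted p = 0.0416) and under robust moderation with a variance trend (adjusted p = 0.0179).

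The family SLC66 holds PQ-loop proteins, named for a proline-glutamine motif. SLC66A1 (PQLC2) exports cationic amino acids from lysosomes, and its log2 values were 9.31 and 9.39 with siNC, 9.40 and 9.58 with siATM, and 9.43 and 9.69 with sip53. Both siRNA groups lay above siNC, but the arrays within a group were spread widely, and the differences of 0.14 and 0.21 did not pass (limma adjusted p = 0.334 and 0.223). SLC66A2 (PQLC1) had values of 8.27 and 8.29, 8.34 and 8.56, and 8.20 and 8.31 in the same order. Both siATM arrays lay above both siNC arrays, siATM replicate 2 by more, but the difference of 0.17 did not pass (limma adjusted p = 0.175). Without siATM replicate 1 it became 0.28, a value that rests on 1 siATM array.

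SLC66A3 (PQLC3) was the member of this family that passed the test. Its log2 values were 9.80 and 9.69 with siNC, 10.14 and 10.04 with siATM, and 9.97 and 10.10 with sip53, so all 4 siRNA arrays lay above both siNC arrays. The rise after siATM was 0.34 (SE 0.08, limma adjusted p = 0.0164). It lost its call without siNC replicate 2 (0.29, adjusted p = 0.0952) or without siATM replicate 1 (0.29, adjusted p = 0.0695). After sip53 the difference was 0.29 (SE 0.08), just outside the threshold (limma adjusted p = 0.0557). Both comparisons use the same siNC arrays, and the direct difference between the siRNAs was 0.06 (95% interval −0.12 to 0.23).

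SLC38A12 (TMEM104) is placed by its family number among sodium-coupled neutral amino acid transporters. Its log2 values were 9.97 and 9.91 with siNC, 9.72 and 9.89 with siATM, and 10.15 and 10.11 with sip53. The groups did not overlap, with siATM lowest and sip53 highest, but neither −0.13 after siATM nor 0.19 after sip53 passed (limma adjusted p = 0.218 and 0.146).

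The sugar family SLC60 did not pass the test in either comparison. SLC60A2 (MFSD4B, also NaGLT1), a sodium-dependent glucose transporter, had values of 8.50 and 8.52 with siNC, 8.49 and 8.53 with siATM, and 8.65 and 8.62 with sip53. Its difference after siATM was −0.0005, with a 95% interval from −0.13 to 0.13, and after sip53 it was 0.13 (limma adjusted p = 0.190). SLC60A1 (MFSD4A) lay close to the brightness limit, at 6.04 and 6.10 with siNC, 6.01 and 5.85 with siATM, and 6.10 and 6.15 with sip53. Its differences were −0.14 and 0.06 (limma adjusted p = 0.206 and 0.652).

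Among the 8 genes of other or uncertain substrate, the SLC71 pair gave the widest contrast. SLC71A1 (MFSD14A, first named as a hippocampus-abundant transcript) and SLC71A2 (MFSD14B) are close relatives within the major facilitator superfamily, and probe sets of related genes can share sequence. SLC71A2 had log2 values of 11.41 and 11.39 with siNC, 10.99 and 10.85 with siATM, and 11.49 and 11.53 with sip53. The siATM arrays lay below the other 4. The means were 11.40 ± 0.01 and 10.92 ± 0.10 (SD, n = 2 each), a log2 fold change of −0.48 (SE 0.07, limma adjusted p = 0.00271), and the call was kept in all 14 settings. SLC71A1 had values of 11.59 and 11.46 with siNC, 11.73 and 11.63 with siATM, and 11.28 and 11.38 with sip53. Here siATM was highest and sip53 lowest, the reverse of SLC71A2, but the differences from siNC of 0.15 and −0.20 did not pass (limma adjusted p = 0.171 and 0.143).

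SLC61A1 (MFSD5), a relative of algal molybdate transporters, rose after siATM. Its log2 values were 8.56 and 8.65 with siNC, 8.89 and 8.95 with siATM, and 8.65 and 8.60 with sip53. The sip53 and siNC arrays overlapped, and the siATM arrays stood above them. The log2 fold change after siATM was 0.32 (SE 0.06, limma adjusted p = 0.00923), and it lost its call without siNC replicate 1 (0.28, adjusted p = 0.0641). After sip53 it was 0.02 (95% interval −0.12 to 0.16).

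The remaining orphan carriers did not pass against siNC. SLC75A1 (MFSD10, also TETRAN), a relative of bacterial tetracycline exporters reported to carry organic anions, had values of 10.91 and 10.94 with siNC, 10.87 and 11.03 with siATM, and 10.65 and 10.80 with sip53. Its sip53 arrays were the lowest, with a difference of −0.20 (limma adjusted p = 0.162). SLC67A2 (MFSD9) had values of 7.09 and 6.97, 7.10 and 7.06, and 7.23 and 7.15 in the order siNC, siATM, sip53, and SLC68A1 (MFSD13A, also TMEM180) had 7.73 and 7.70, 7.60 and 7.76, and 7.66 and 7.77. The differences of SLC67A2 were 0.05 and 0.16, and those of SLC68A1 were −0.03 and 0.003.

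**Figure D2:**
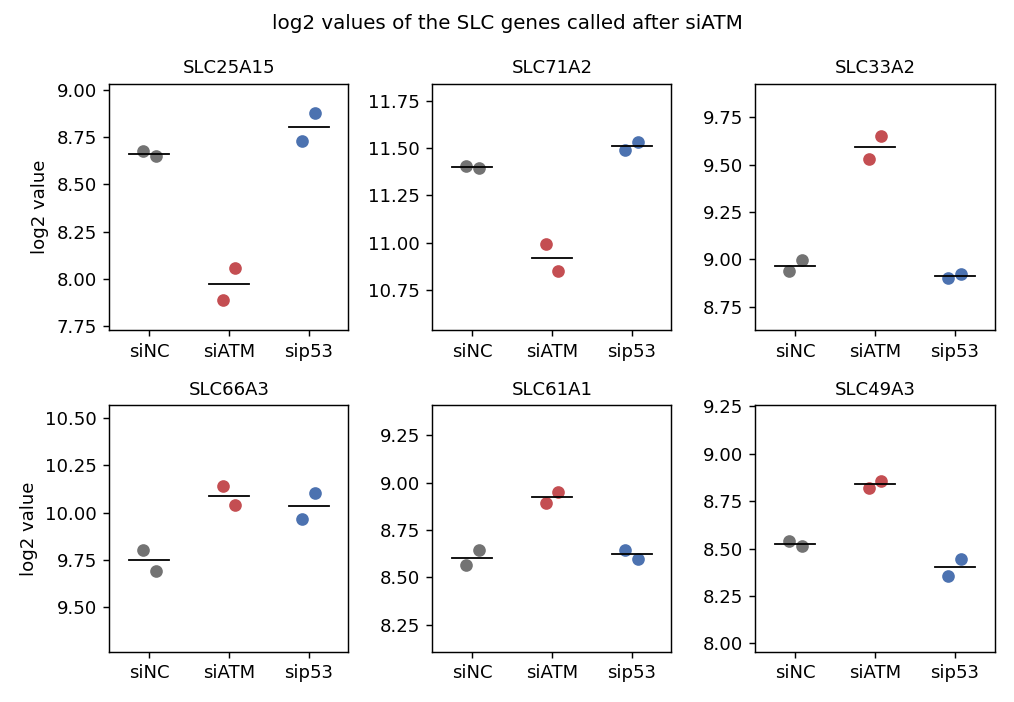
Log2 value (y axis, the same span in each panel) of the 6 SLC genes that passed the test after siATM, by siRNA (x axis); points are the 2 arrays of a group and bars their mean. The siATM arrays of SLC25A15 (7.89 and 8.06) and SLC71A2 lie below all other arrays, those of SLC33A2 (9.53 and 9.65), SLC61A1 and SLC49A3 lie above all others, and in SLC66A3 both siRNAs lie above siNC.

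After sip53, limma called 0 of the 17 members, against 10.6% of all genes tested (5.47% higher and 5.11% lower). Those shares are 582 genes higher and 544 lower, and centring the arrays on their median gave 410 and 668, with 0 members called as before. At an unadjusted p below 0.05 there were 7 of 17, and 26.4% of all genes. The sip53 and siNC arrays did not overlap in 14 of the 17, against 58.9% of all genes. The fold changes ran from −0.21 (SLC25A2) to 0.29 (SLC66A3), with a median of 0.06 against 0.01 over all genes and a median absolute change of 0.14 against 0.10. Adjusted p ran from 0.0557 to 0.985. Both siRNA comparisons use the same siNC arrays. The count depends on the settings. With the limit at the 70th percentile SLC66A3 was called (adjusted p = 0.0198). Under robust moderation with a variance trend SLC66A3 was called higher (adjusted p = 0.00908) and SLC71A1 and SLC75A1 lower (adjusted p = 0.0298 and 0.0473).

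Whether the 2 siRNAs act differently on a gene was tested by comparing siATM with sip53 directly, which does not use the siNC arrays' level. Of the 17 members, 4 were higher and 4 lower with siATM, against 30.3% of all genes called (14.0% higher and 16.3% lower). Their arrays did not overlap in 14 of the 17, against 65.4% of all genes. SLC25A15 was lower by 0.83 on the log2 scale, or 1.78-fold (SE 0.08, limma adjusted p = 0.000565). SLC71A2 was 1.51-fold lower, with a log2 difference of −0.59. Higher with siATM were SLC33A2 (1.60-fold), SLC49A3 (1.35-fold), SLC71A1 (1.27-fold) and SLC61A1 (1.23-fold). SLC38A12 (−0.33, limma adjusted p = 0.0137) and SLC49A4 (−0.31, limma adjusted p = 0.00743) were lower with siATM than with sip53, although neither siRNA gave a call against siNC. In SLC71A1 too the direct difference of 0.35 passed (limma adjusted p = 0.0110) where neither single comparison did. By class, the direct test called 3 of 3 genes of the cofactor families, 2 higher and 1 lower with siATM. It called 1 of 2 mitochondrial carriers, 1 of 2 genes classed under amino acids and 0 of 2 sugar family genes. Of the 8 others it called 3, again 2 higher and 1 lower. SLC38A12 lost this call without either sip53 array (adjusted p up to 0.0801), SLC71A1 without siATM replicate 1 or sip53 replicate 1 (up to 0.0771), and SLC61A1 without sip53 replicate 2 (0.0675).

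**Figure D3:**
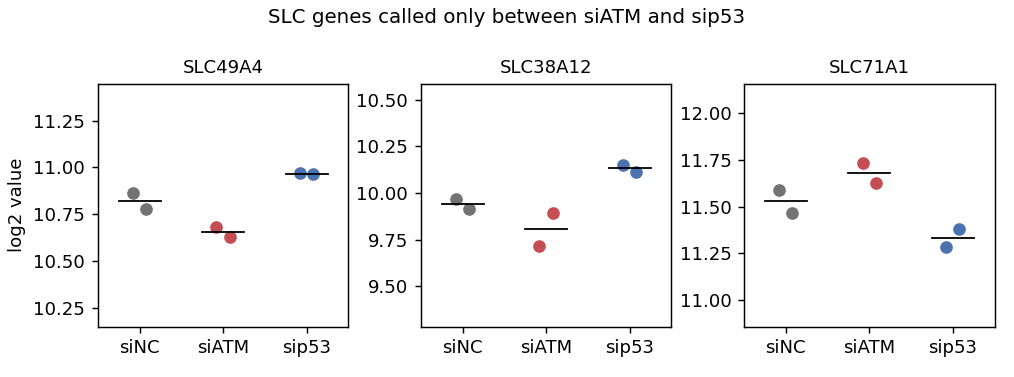
Log2 value (y axis, the same span in each panel) of SLC49A4, SLC38A12 and SLC71A1 by siRNA (x axis); points are the 2 arrays of a group and bars their mean. In SLC49A4 and SLC38A12 the siATM arrays are lowest and the sip53 arrays highest, in SLC71A1 the order is reversed, and the siNC arrays lie between.

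Carriers that belong to the superfamily under other symbols were followed through a list of 62 symbols. It includes MFSD5, an older symbol of the member SLC61A1 that was not named in the annotation. Of the 62 symbols, 23 were named and 22 tested. After siATM 2 were higher and 2 lower, against 25.5% of all genes called, and after sip53 again 2 and 2, against 10.6%. Among them, SFXN5 was lower after siATM (−0.21, limma adjusted p = 0.0418). XPR1 was higher (0.28, limma adjusted p = 0.0245) and SFXN1 lower (−0.27, limma adjusted p = 0.0300) after sip53. SFXN5 lost its call in 9 of 13 alternatives, XPR1 in 5 of 14 and SFXN1 in 5 of 13. Without siNC replicate 1 the counts were 0 and 1 after siATM and 0 and 0 after sip53, and without any 1 of the other siNC and sip53 arrays they were 0 and 1 after sip53. The lower count after siATM was also 1 without any other single array except siATM replicate 2. MFSD2A, which carries lysophosphatidylcholine with omega-3 fatty acids, had log2 values of 7.82 and 7.73 with siNC, 7.16 and 7.14 with siATM, and 7.30 and 7.10 with sip53. It was lower after both siRNAs (−0.62 and −0.57, limma adjusted p = 0.00205 and 0.00666), and after sip53 it lost its call without siNC replicate 1 (adjusted p = 0.0529). SPNS1, a lysosomal lysophospholipid exporter, rose after siATM (0.46, limma adjusted p = 0.00719) and lost the call without siNC replicate 1 (adjusted p = 0.0506). SFXN2, a mitochondrial sideroflexin, rose after siATM (0.33) and after sip53 (0.33), but the siATM call was lost without siNC replicate 1 (adjusted p = 0.0573) and the sip53 call without any 1 siNC or sip53 array (adjusted p up to 0.129).

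Proteins that hold carriers at the membrane or control them formed a list of 24 symbols. In it NHERF1 and NHERF2 also stand under the older symbols SLC9A3R1 and SLC9A3R2, none of them named in the annotation. Of the 24 symbols, 12 were tested. After siATM 4 were higher and 2 lower, against 25.5% of all genes called, and after sip53 0 were higher and 1 lower, against 10.6%. ARRDC4 and TXNIP encode arrestin-domain proteins that limit glucose uptake. ARRDC4 had log2 values of 7.63 and 7.75 with siNC, 8.51 and 8.50 with siATM, and 7.67 and 7.75 with sip53, a rise after siATM of 0.81 (SE 0.06, limma adjusted p = 0.000484). TXNIP rose by 0.54 after siATM (limma adjusted p = 0.00146). ARL6IP5, which holds back glutamate transporters, rose by 0.39 and OSTM1, the partner of a lysosomal chloride exchanger, by 0.36. PDZK1IP1, a partner of sodium-glucose transport in kidney, was lower after sip53 (−0.59, limma adjusted p = 0.00241) and after siATM (−0.33, limma adjusted p = 0.00691), the latter not without siNC replicate 1 (adjusted p = 0.0514). The other gene lower after siATM was NPTN, a partner of monocarboxylate transporters (−0.21, limma adjusted p = 0.0485), which lost its call in 9 of 14 alternatives, among them without any 1 array except siATM replicate 2 (adjusted p up to 0.178).

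ATF4 is the transcription factor of the amino acid response and drives many amino acid carriers and synthesis enzymes. Of 24 tested genes of this list of 32, 1 was higher and 7 lower after siATM, and 1 was higher and 3 lower after sip53, with medians of −0.10 and −0.04. The shares over all genes were 25.5% and 10.6%. Without siNC replicate 2 the counts after siATM were 0 higher and 4 lower, and the higher call was also lost without siNC replicate 1 or either siATM array. After sip53, leaving out any 1 siNC or sip53 array left 0 higher and 0 to 1 lower. The asparagine synthetase gene ASNS fell after siATM (−0.55) and after sip53 (−0.44). PCK2, the mitochondrial phosphoenolpyruvate carboxykinase, fell by 0.50 and by 0.31. The serine synthesis gene PSAT1 (−0.52) and the tryptophanyl-tRNA synthetase gene WARS1 (−0.48) fell after siATM. WARS1 has 2 probe sets, and its change ran from −0.49 to −0.30 over the 14 alternatives. CTH, the cystathionine gamma-lyase, was called lower after siATM (−0.28, limma adjusted p = 0.0324) and higher after sip53 (0.32, limma adjusted p = 0.0385). Its siATM call was lost without siNC replicate 2 or either siATM array (adjusted p up to 0.169), and its sip53 call without any 1 of the 6 arrays (up to 0.206). The direct difference of −0.60 between siATM and sip53 (limma adjusted p = 0.00130) was called in all 14 settings. NARS1 was lower after sip53 (−0.32). The sip53 calls of ASNS, PCK2 and NARS1 were also lost without 1 of several single arrays (adjusted p up to 0.128, 0.146 and 0.108). ATF4 itself did not pass (0.10 and −0.04). Of 35 ATP-driven ion pumps, 2 were named and tested, and ATP13A2, a lysosomal polyamine exporter, was lower after sip53 (−0.52, limma adjusted p = 0.00385).

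**Figure D4:**
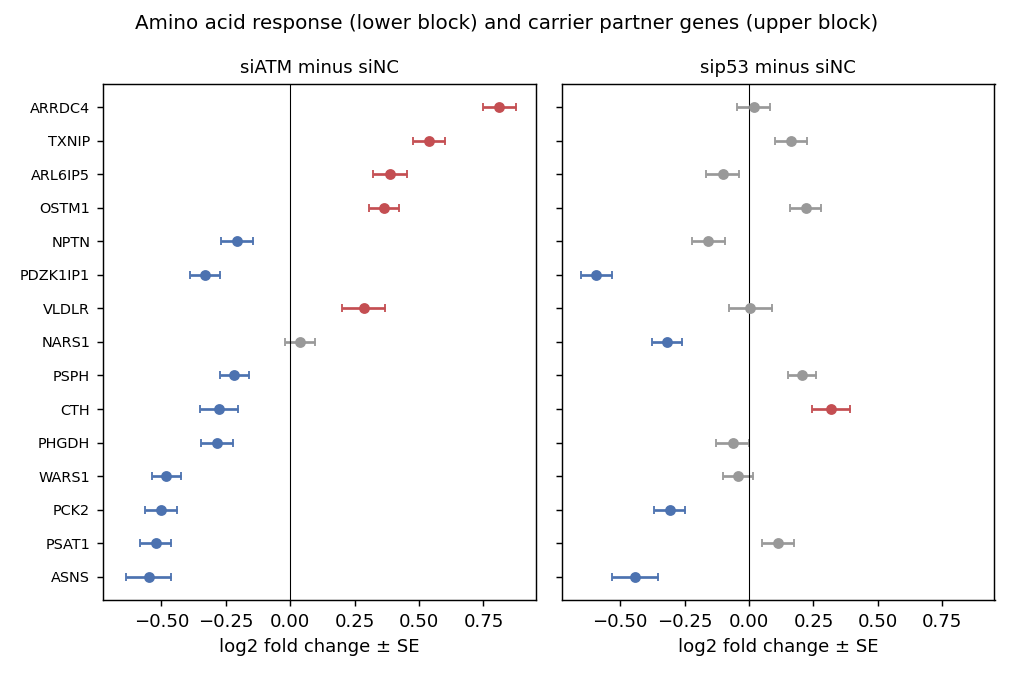
Log2 fold change (x axis, ± moderated SE) for siATM minus siNC and sip53 minus siNC of every gene of the carrier partner list (upper block, ARRDC4 to PDZK1IP1) and of the amino acid response list (lower block, VLDLR to ASNS) called in at least 1 of both comparisons. Red is called higher, blue called lower and grey not called; ARRDC4 has the largest rise after siATM (0.81) and PDZK1IP1 the largest fall after sip53 (−0.59).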

How the data were processed

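Log2 values per probe set were deposited by the authors for 6 arrays, 2 for each siRNA. The scale was read from the values (1.33 to 14.2), and the background correction and normalization are not stated in the labels. Summarised array values compress changes of dim genes, and scaling removes changes in total RNA. The number of arrays limits the precision. No scanner files or batch labels were used.

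The platform annotation gave 1 symbol to 16098 of the 53617 probe sets, several to 0 and left 37519 without a name here. The probe set with the highest mean stood for a gene. Genes with a mean of at least 5.96, the median of all probe sets, were fitted over all 6 arrays with limma 3.58.1 (R 4.3.3), lmFit and eBayes (3 residual and 7.29 total degrees of freedom). P-values are two-sided and Benjamini-Hochberg adjusted within a contrast over all genes tested, with calls below 0.05. Intervals are 95% moderated intervals, not adjusted for the number of genes. The procedure was tested on simulated data. Alternatives were quantile normalization, median centring, no or a stricter brightness limit, a variance trend, the mean of all probe sets, a replicate block, a fit of 2 groups, and leaving out each array.

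Substrate classes follow the SLC family number, except in SLC66, where the single gene decided. The members and lists were chosen with earlier results of these data known. By the rule for names, all called members are named (up to 15 per direction), with up to 4 called genes per related list and contrast with siNC. For the related lists, the direct comparison is given only for CTH, which the rule did not single out. Other list genes were called there too, among them ARRDC4 (0.79) and PSAT1 (−0.64). All other members are given too. ATF4, NPTN, the siATM values of CTH and PDZK1IP1, and the markers were chosen after their values were seen.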

Additional observations from a re-analysis of the deposited data

Results flagged for a closer look

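For 7 SLC genes the arrays of the siRNAs lay on opposite sides of both siNC arrays and the direct comparison of siATM with sip53 passed limma's test, which 12.9% of all genes tested also did. Both comparisons with siNC share its arrays. SLC25A15 (−0.83), SLC71A2 (−0.59), SLC38A12 (−0.33) and SLC49A4 (−0.31) were lower with siATM than with sip53 on the log2 scale. SLC33A2 (0.68), SLC49A3 (0.44) and SLC71A1 (0.35) were higher. Against siNC, 0 of the 7 passed after sip53, so the opposite direction from the control is itself called only on the siATM side, and there for SLC25A15, SLC71A2, SLC33A2 and SLC49A3.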

How the results depend on the processing

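Checked were 47 fold changes, those of called members and of up to 4 called genes per related list and contrast, some of them not named above. The alternatives left the direction of all 47 unchanged, and 27 of them, 8 of the 14 for SLC genes, kept their call in each alternative run. The number of SLC genes higher after siATM was 2 to 4 when 1 array was left out, and the number lower was 2 throughout. For sip53 against siNC, 0 SLC genes were called higher, against 1 with the limit at the 70th percentile and 1 under robust moderation with a variance trend, and 0 lower, against 2 with the trend. In the direct comparison leaving out 1 array gave 3 to 6 higher and 3 to 5 lower. With the replicate number as a block, the counts after siATM were 4 higher and 2 lower, after sip53 0 and 0, and in the direct comparison 5 and 4, SLC75A1 being added (adjusted p = 0.0372). The numbers share no stated source, and the replicate differences of the groups correlated at 0.0363, 0.0277 and 0.117 across genes. Of the counts by class and list, 651 of their recomputed values were within 1.5 times, 80 below and 25 above. The cause of these changes was not tested.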
